A study of Mus musculus with 9 samples.

Results

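The 60 miRNAs described here are mouse miRNAs with names numbered 5000 or more that were detected in osteoblastic cells grown from mouse marrow. They were chosen by a measured value, the detection call of the scanner software, which had to be positive on at least 7 of the 9 arrays. Of the 1881 miRNAs on the array, 782 carry such a number, and 66 of these passed. Among the 66, 6 were left out by name (miR-5126, miR-6366, miR-6378, miR-7005-5p, miR-8110 and miR-8117). Their mean log2 signal had a median of 10.33, far above that of the others (4.94). The 60 that remained carry the 5p suffix in 40 cases, the 3p suffix in 8 and no arm suffix in 12. Detection and level are therefore descriptions of how the miRNAs were selected, and no test was made on them.

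The cells were taken from bone marrow of C57BL/6 males that were 8 weeks old. A first culture of 7 days was followed by 7 days of osteoblast differentiation with β-glycerophosphate, ascorbate and dexamethasone. All doses shared this culture, and alpha particles were given at 0, 0.5 or 1 Gy (0.22 Gy per minute), with 3 one-colour Agilent arrays per dose. Whether those 3 were separate mice or cultures is not in the labels, so p-values may reflect technical spread alone. The series title names the question of how radiosensitivity relates to miRNA expression. In the labelled cell type, 4 of 8 stromal and osteoblastic marker miRNAs were detected on any array, and miR-125b-5p and miR-214-3p on all 9. The stromal markers miR-143-3p, miR-145a-5p, miR-218-5p and miR-10b-5p were detected on none. The myeloid list had 1 of 5 members detected (miR-223-3p), the erythroid and platelet list 0 of 3, the endothelial list 0 of 2 and the lymphoid list 2 of 2. In bulk RNA, fewer cells of a type and less RNA per cell cannot be told apart.

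A miRNA is a short RNA that guides silencing proteins to messenger RNAs, mostly through its bases 2 to 8, the seed. It is cut from one side of a hairpin, the 5p side before the loop or the 3p side after it. Numbers were given in the order of discovery, so high numbers mostly belong to miRNAs found late by deep sequencing, many of them weakly conserved and with little known of their function. Some of them are mirtrons, short introns that fold into a hairpin once spliced, whose 3p side ends in the AG of the splice acceptor.

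The sequences below show what most of these miRNAs share, namely much guanine and little cytosine. They are RefSeq mature sequences, written 5′ to 3′ with the seed in capitals, for miRNAs whose values follow. RefSeq tables on GRCm38.p6 matched 54 of the 60.
miR-6769b-5p: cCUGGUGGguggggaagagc
miR-7047-5p: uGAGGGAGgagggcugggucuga
miR-6997-5p: uAACAGGCuggagaggugcaga
miR-6937-5p: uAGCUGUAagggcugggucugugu
miR-7058-5p: uAGAGGGGaggugaccguggaagu
miR-6931-5p: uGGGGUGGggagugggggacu
miR-7226-5p: gCCAGGGAaguugauugugugaaggg
miR-6385: gCAAGGAUgacagagaggaag
miR-6238: uUAUUAGUcaguggaggaaaug
miR-7002-5p: uUGGCUUCggggaguacgugg
miR-6961-5p: uGACUGGGaaggaaauggcc
miR-5132-5p: gCGUGGGGugguggacucagg

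In 5 of the 7 members of the 3p arm with a sequence, cytosine took the place of guanine. The exceptions were miR-5622-3p (45.5% guanine, 13.6% cytosine) and miR-6392-3p (34.8% and 30.4%). The 5 are shown with miR-5100, which has no arm suffix, because their signal was higher on arrays where most members were lower. Also higher there were miR-6392-3p and miR-5119, not shown, and miR-5620-3p, which has no sequence. Some guanine-rich 5p members were slightly higher there too. Among them, miR-6937-5p and miR-7047-5p were 0.46 and 0.30 (log2) above the other irradiated arrays.
miR-6924-3p: uCCUUAAUccccacccuucag
miR-6943-3p: cUGCUUCCauaccccuacccag
miR-7022-3p: aCAAGCCUgaccucugccccca
miR-7115-3p: aCUUGGUCcccugcccccacag
miR-6976-3p: aUCUCCCUcccaacuccccag
miR-5100: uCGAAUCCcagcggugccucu

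Guanine made up a median of 46.9% of the bases of the 54 miRNAs with a sequence and cytosine 13.3%. For the 5p members the medians were 52.3% guanine and 9.5% cytosine, and for the 3p members 13.6% and 50%. The 78 miRNAs with numbers below 5000 that met the same detection rule, used here for comparison, had medians of 38.5% and 22.7%. A run of 3 guanines (GGG, read on the strand of the miRNA) was in 40 of the 54, or 74.1%, against 257 of the 684 late-numbered miRNAs of the array with a sequence, or 37.6%. The arms differ in this, and more of the members are 5p. Within the 5p arm GGG was in 88.9% of members and 61.5% of late-numbered miRNAs, and within the 3p arm in 28.6% and 12.9%. A run of 4 (GGGG, which contains GGG) was in 26 of the 54, or 48.1%, against 16.2% of the 684. Detection was more frequent at higher guanine content: 37 of 132 late-numbered miRNAs with more than 45% guanine were detected on 7 or more arrays (28.0%), and 6 of 283 with at most 25% (2.12%). The miRNAs with numbers below 5000 showed the same order, with 24 of 67 (35.8%) and 22 of 474 (4.64%). So the link between guanine and detection was not particular to late numbers.

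The seeds were almost all different, with 53 distinct seeds among the 54 sequences, and 24 of the 54 members held GGG in the seed. The one seed carried by 2 of the 54 was GAGGGAG, in miR-7047-5p and miR-6965-5p. Beyond the group, miR-6368 shared its seed with miR-3547-5p and miR-7048-5p with miR-185-3p, both of which were also detected. These sequences are shown because a shared seed predicts shared target sites.
miR-7047-5p: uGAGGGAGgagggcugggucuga
miR-6965-5p: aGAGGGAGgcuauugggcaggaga
miR-6368: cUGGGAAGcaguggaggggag
miR-3547-5p: gUGGGAAGagggguggggcccggga
miR-7048-5p: cGGGGCUGagaggugaggaagc
miR-185-3p: aGGGGCUGgcuuuccucuggu

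RefSeq hairpins were matched for 53 members, with a median length of 67 bases, the same as for all late-numbered miRNAs and against 80.5 for the comparison miRNAs. The hairpin ended in AG, the letters of a splice acceptor, in 36 of 53 (67.9%), against 12.5% of the comparison miRNAs and 54.0% of all late-numbered miRNAs. It began with GU, the letters of a splice donor, in 9 of the 53, against 60 of 648 late-numbered and 6 of 56 comparison miRNAs. Of the 35 members of the 5p arm with a hairpin, 33 began within its first 6 bases (94.3%, against 94.6% of all late-numbered 5p miRNAs). In the 3p arm, 5 of 7 members ended at the last base of the hairpin (71.4%, against 77.9% of all late-numbered 3p miRNAs). The hairpin lay within the span of a protein-coding gene for 47 of 53 (88.7%), among them Unc13a for miR-6769b, Sptan1 for miR-6997, Pml for miR-6385 and Srf for miR-6976. All late-numbered miRNAs had 85.3% within such spans and the comparison miRNAs 67.9%. The hairpins below show the layout, with the mature miRNA in capitals, at the left on the 5p side and at the right end on the 3p side.
miR-6769b: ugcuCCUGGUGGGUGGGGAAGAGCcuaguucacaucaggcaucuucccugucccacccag
miR-6924: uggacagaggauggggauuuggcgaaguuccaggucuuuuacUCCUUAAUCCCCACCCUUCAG

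Of the 12 members with no arm in their name, 11 had a hairpin, and the mature sequence lay on its 3p side in 8 and on its 5p side in 3. Among all late-numbered miRNAs on the array the arms were balanced, with 313 named 5p and 311 named 3p. Detection on 7 or more arrays was reached by 41 of the 313 (13.1%) and by 8 of the 311 (2.57%). Detection on 1 to 6 arrays went the other way, with 45 of the 5p and 180 of the 3p names (57.9%). Most late-numbered 3p miRNAs that were detected at all were thus detected on 6 arrays or fewer.

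Those arrays were mainly the ones with high background noise, called high-background arrays here. The additive error that the scanner software reports, a measure of background noise in intensity units, reached 19.4 at 0.5 Gy and 11.2 at 1 Gy, in both cases on the array numbered 1. It was 2.83 on array 1 of 0 Gy, 2.45 on the 1 Gy array numbered 3, and 1.60 to 1.72 on the other 5. High and lower background refer to this noise throughout. The median local background was not raised, at 20 on both noisy arrays and 19 to 20 on the rest. The median spot signal was 86 and 60 on the noisy arrays and 30 to 39 on the rest. The late-numbered 3p miRNAs called detected numbered 177 and 137 on the first pair, 96 and 69 on the next pair and 10 to 18 on the other 5. Late-numbered 5p miRNAs numbered 15 and 16 on the first pair and 44 to 73 elsewhere. The part of the background in these calls was not tested.

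**Figure D1:**
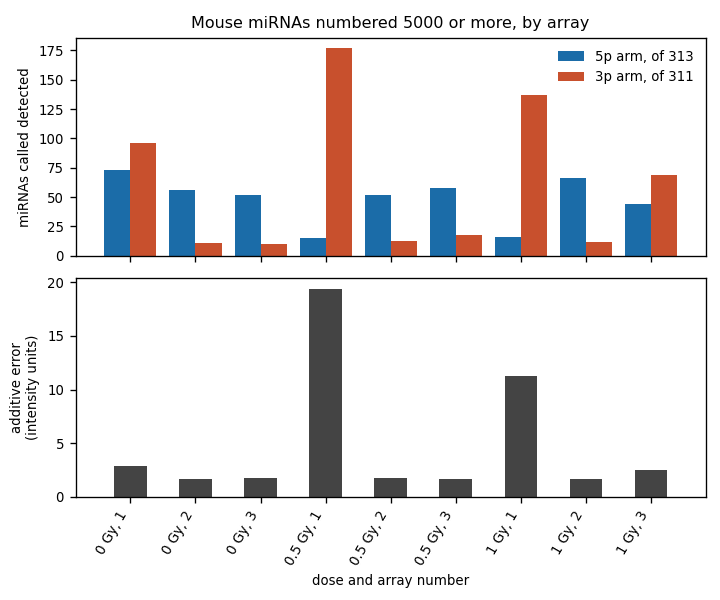
The upper bars count the late-numbered miRNAs called detected on each array, by arm, and the lower bars give the array's additive error in intensity units. Array 1 of 0.5 Gy and of 1 Gy have the highest additive error (19.4 and 11.2), the most 3p miRNAs detected (177 and 137) and the fewest 5p (15 and 16).

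The detection rule therefore picked out miRNAs seen on the 7 arrays of lower background. Of the 60, 56 were detected on all 7 of these. Arrays 1, 2 and 3 detected 60, 59 and 58 of them without irradiation. After 0.5 Gy the numbers were 15, 59 and 60, after 1 Gy 20, 59 and 60. Detection on all 9 arrays held for 10 members, on 8 for 10 and on exactly 7 for 40, of which 39 were missed on both high-background arrays and nowhere else. Just outside the threshold, 18 late-numbered miRNAs were detected on 6 arrays, and 17 of them were missed on the same pair and on array 3 of 1 Gy. The mean log2 signal ran from 3.60 to 6.15 in the 40 just inside and from 3.20 to 4.08 in the 18 just outside.

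Signal is given as log2 of the scaled intensity, summed over a miRNA's probes, with a floor at 2.84 below which values have no order. Probes differ in their response, so miRNAs are ranked by brightness here, not by copies. Over 9 arrays 4 members had a mean above 8, all from the 5p arm: miR-6769b-5p (9.74), miR-7042-5p (9.46), miR-7047-5p (9.25) and miR-6997-5p (8.19).
In miR-6769b-5p the log2 signal was 11.15, 9.77 and 9.28 without irradiation, 9.39, 9.64 and 9.29 after 0.5 Gy, and 9.33, 10.34 and 9.45 after 1 Gy. It was high on array 1 of 0 Gy and array 2 of 1 Gy, and the doses overlapped.
In miR-7042-5p it was 11.77, 9.47 and 8.99 without irradiation, 9.11, 9.0 and 8.95 after 0.5 Gy, and 9.29, 9.51 and 9.02 after 1 Gy. Apart from array 1 of 0 Gy, its values lay within a range of 8.95 to 9.51.
In miR-7047-5p it was 9.65, 9.82 and 9.08 without irradiation, 9.25, 9.22 and 9.15 after 0.5 Gy, and 9.38, 9.04 and 8.65 after 1 Gy. The doses overlapped, and no array stood apart.
In miR-6997-5p it was 8.32, 8.77 and 8.13 without irradiation, 7.19, 8.57 and 8.33 after 0.5 Gy, and 8.14, 8.46 and 7.80 after 1 Gy. Its lowest value was on the high-background array of 0.5 Gy.

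Means between 6 and 8 were found for 11 members. These were miR-6360 (7.85), miR-6937-5p (7.66), miR-7036a-5p (7.49), miR-7686-5p (7.44), miR-5622-3p (7.33), miR-6908-5p (7.17), miR-7118-5p (7.00), miR-7058-5p (6.51), miR-6944-5p (6.22), miR-6969-5p (6.15) and miR-7009-5p (6.03). Means between 5 and 6 were found for 14: miR-8101 (5.89), miR-7082-5p (5.86), miR-7040-5p (5.86), miR-7048-5p (5.84), miR-8102 (5.74), miR-6392-3p (5.62), miR-6385 (5.53), miR-7011-5p (5.51), miR-5119 (5.44), miR-6931-5p (5.36), miR-5107-5p (5.31), miR-6538 (5.24), miR-7020-5p (5.21) and miR-6368 (5.20).
The fullest band, between 4 and 5, held 29 members. Those were miR-7018-5p (4.97), miR-6984-5p (4.92), miR-7226-5p (4.88), miR-6973b-5p (4.87), miR-6238 (4.86), miR-7022-3p (4.83), miR-7050-5p (4.75), miR-5100 (4.71), miR-6987-5p (4.71), miR-6898-5p (4.63), miR-7045-5p (4.61), miR-5620-3p (4.58), miR-6995-5p (4.58), miR-8105 (4.57), miR-7070-5p (4.55), miR-7044-5p (4.53), miR-6924-3p (4.50), miR-6943-3p (4.48), miR-7216-5p (4.44), miR-5128 (4.41), miR-7115-3p (4.38), miR-6965-5p (4.29), miR-6976-3p (4.26), miR-6978-5p (4.18), miR-6391 (4.16), miR-7219-5p (4.13), miR-7653-5p (4.08), miR-6963-5p (4.05) and miR-7002-5p (4.04). The lowest means were those of miR-6961-5p (3.99) and miR-5132-5p (3.60).

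At the low end the values approached the floor, and both high-background arrays sat on it.
In miR-5132-5p the log2 signal was 4.18, 4.04 and 3.42 without irradiation, at the floor, 3.78 and 3.74 after 0.5 Gy, and at the floor, 4.10 and 3.42 after 1 Gy. The hairpin of this miRNA lies within Irak1, a kinase gene of innate immune signalling.
In miR-6961-5p it was 4.82, 4.58 and 3.73 without irradiation, at the floor, 4.65 and 4.20 after 0.5 Gy, and at the floor, 4.64 and 3.61 after 1 Gy. In miR-7002-5p it was 3.81, 4.75 and 4.24 without irradiation, at the floor, 4.79 and 4.53 after 0.5 Gy, and at the floor, 4.39 and 4.13 after 1 Gy. On the other arrays each irradiated dose overlapped 0 Gy in all 3, while in miR-7002-5p both values of 1 Gy were below those of 0.5 Gy.

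As a share of all summed signal, the 60 gave 14.6%, 20.4% and 13.9% without irradiation, 3.15%, 16.0% and 14.6% after 0.5 Gy, and 5.72%, 13.9% and 10.9% after 1 Gy. The low shares were those of the high-background arrays. On array 1 of 0 Gy, miR-494-3p alone took 53.0% of the signal.

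**Figure D2:**
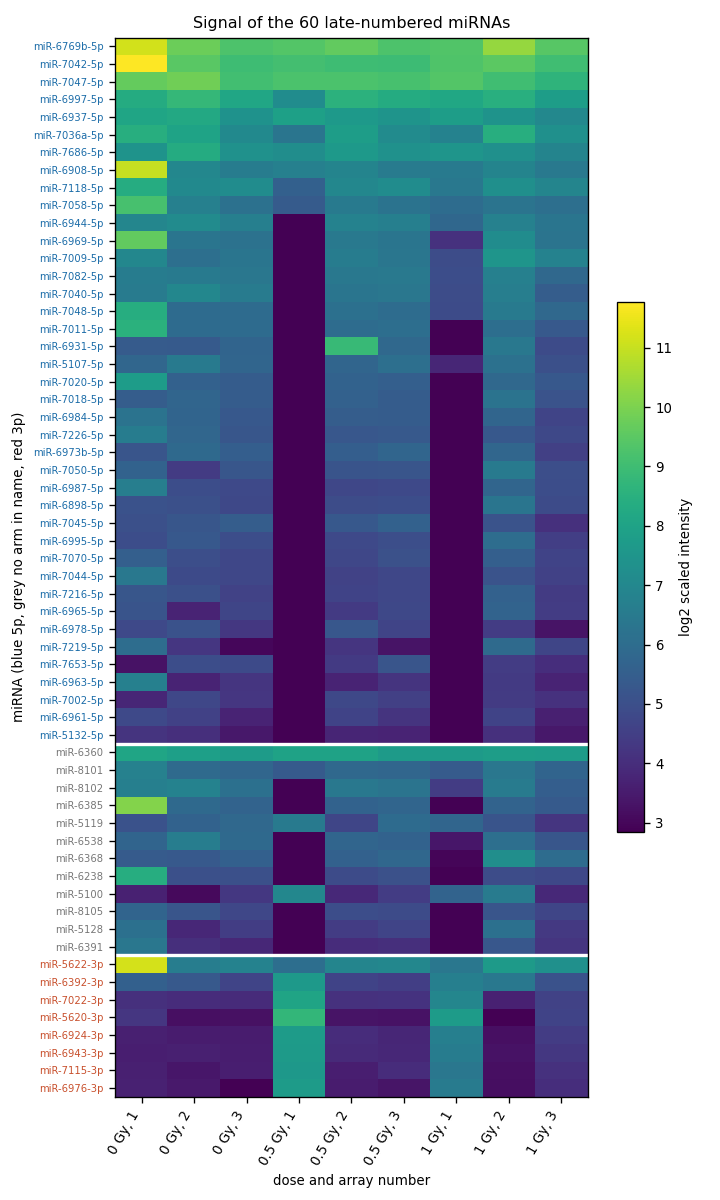
Each row is 1 of the 60 miRNAs, ordered by arm and mean, each column is an array, and colour gives log2 scaled intensity. The dark columns are array 1 of 0.5 Gy and of 1 Gy, where 38 and 28 members were at the floor of 2.84 (of 60), while 7 of the 8 in the 3p arm are brightest there.

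On the high-background arrays the medians of the 5p and 3p members lay on opposite sides of the other arrays. The detection rule in part sets this, since 39 of the 60 were missed on this pair and nowhere else. Of the 40 members of the 5p arm, 30 and 23 were at the floor on its arrays of 0.5 and 1 Gy. Set against the other 4 irradiated arrays, the mean of that pair differed by a median of -2.08 (log2) in the 5p members, -2.06 in those with no arm suffix, 3.35 in the 3p members, some of them near background as given below, and -0.87 in the comparison miRNAs. Over all late-numbered miRNAs, many of them at the floor, the median difference was 0 in the 5p arm and 3.78 in the 3p arm. In all, 43 members were below all 7 other arrays on both, and 7 were above all 7 on both, all of these of the 3p arm. Of all 182 miRNAs tested, 93 were below and 28 above in this way, and of the 78 comparison miRNAs 36 and 20.
Across the 54 members with a sequence, the shift was larger at higher cytosine content (Pearson's r 0.82, Spearman's rho 0.57). The same held across 66 comparison miRNAs (0.73 and 0.67), and less closely within the 36 members of the 5p arm (0.48 and 0.40). These are descriptions across miRNAs measured on the same arrays, not independent replicates, and many values on the pair were at the floor. Whether base content, background or arm has a part in the shift was not tested.
Among members with no arm suffix, the largest positive shifts were those of miR-5100 and miR-5119 (1.64 and 1.1). Both are on the 3p side of their hairpins and hold 38.1% and 31.6% cytosine. Neither was above all 7 other arrays on both. The software called miR-5119 detected on neither of the pair, and miR-5100 only on that of 0.5 Gy. By contrast miR-6538, on the 5p side with 36.8% cytosine, had a shift of -2.57. Of the other members with no arm suffix on the 3p side, miR-6368, miR-8102 and miR-6238 had shifts of -3.27, -2.55 and -2.07.

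**Figure D3:**
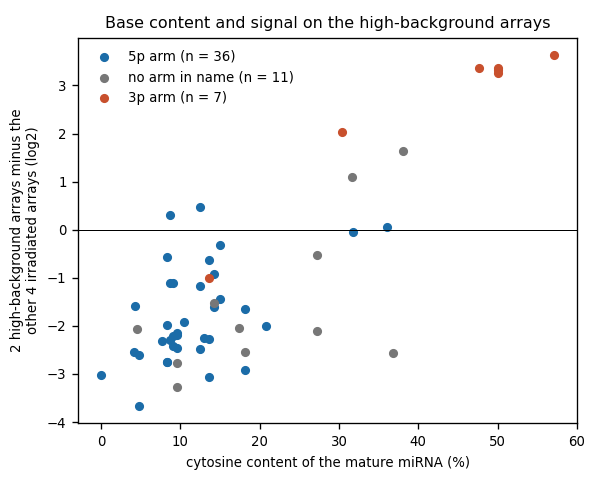
Each point is a miRNA with a sequence, placed by the cytosine content of its mature form and by the log2 difference between the mean of the 2 high-background arrays and that of the other 4 irradiated arrays. The 3p points sit at the upper right, except miR-5622-3p with 13.6% cytosine at -1.0, and most 5p points lie below 0.

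Values of 3p members, chosen after they were seen, show this directly.
In miR-6924-3p the log2 signal was 3.63, 3.52 and 3.51 without irradiation, 7.74, 3.97 and 3.81 after 0.5 Gy, and 6.70, 3.22 and 4.41 after 1 Gy. It was high on both high-background arrays and close to the floor elsewhere. This miRNA, miR-6943-3p and miR-7115-3p had no probe with most of its spots well above background on any array, so the call of detection rests on the software's own rule and no fold is given for them.
In miR-5620-3p, the member with the largest spread, it was 4.26, 3.20 and 3.23 without irradiation, 8.76, 3.32 and 3.26 after 0.5 Gy, and 7.73, at the floor, and 4.65 after 1 Gy. The same pair of arrays was high, and the doses overlapped.
The remaining 3p member, miR-5622-3p, held 45.5% guanine and followed the 5p pattern. Its log2 signal was 11.20, 6.62 and 6.81 without irradiation, 6.06, 6.92 and 6.97 after 0.5 Gy, and 6.39, 7.70 and 7.34 after 1 Gy. Array 1 of 0 Gy was far above the rest, and the high-background arrays gave the lowest values.

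The spread between arrays of the same dose, as the pooled within-dose SD, had a median of 1.24 (log2) in the 60, 1.12 in the comparison miRNAs and 1.04 in all 182 miRNAs tested. Without the 2 high-background arrays, a fit added after the data were seen, the medians were 0.52, 0.49 and 0.55. The number of members with an SD above 1 went from 43 of 60 to 15 of 60. Within bands of mean level, members and comparison miRNAs had similar spreads on those 7 arrays, with medians of 0.55 and 0.51 below a log2 signal of 5, and 0.53 and 0.47 between 6 and 8.

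**Figure D4:**
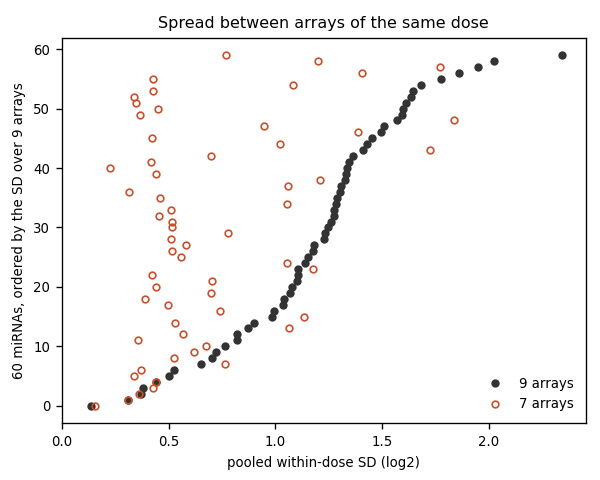
Each of the 60 miRNAs has a filled point for its pooled within-dose SD (log2) over 9 arrays and an open point for the same over the 7 arrays of lower background. The median falls from 1.24 to 0.52, and 15 open points stay above 1.

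The smallest spread was that of miR-6360, with an SD of 0.14. Its log2 signal was 8.08, 7.88 and 7.73 without irradiation, 7.98, 7.98 and 7.70 after 0.5 Gy, and 7.70, 7.80 and 7.76 after 1 Gy. The high-background arrays did not stand apart in it. The next were miR-7047-5p (0.31), given above, and miR-6937-5p (0.37). In miR-6937-5p the log2 signal was 8.08, 8.24 and 7.38 without irradiation, 7.90, 7.62 and 7.46 after 0.5 Gy, and 7.80, 7.44 and 7.02 after 1 Gy. The dose means fell in order, but the doses overlapped.
Beside miR-5620-3p (2.34), the largest spreads were those of miR-6931-5p (2.03) and miR-6385 (1.95). In miR-6931-5p the log2 signal was 5.39, 5.37 and 5.73 without irradiation, at the floor, 8.86 and 5.85 after 0.5 Gy, and at the floor, 6.42 and 4.89 after 1 Gy. A single array, number 2 of 0.5 Gy, was high.

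Array 1 of 0 Gy also stood apart. It was the highest array for 26 of the 60 members, against 18 of the 78 comparison miRNAs. In 14 members (23.3%) it was more than 1 log2 unit above every other array, against 7.69% of the comparison miRNAs and 13.7% of all tested. Among these, chosen after the values were seen, miR-6908-5p read 10.97 there and 6.45 to 6.98 on the other 8 arrays, and miR-6969-5p read 9.61 there and at most 7.19 elsewhere.

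Differences between doses were tested with limma over all 9 arrays in 1 fit, with Benjamini-Hochberg adjustment over 182 miRNAs, all 60 members among them. Both comparisons with 0 Gy use the same 0 Gy arrays. No miRNA passed an adjusted p of 0.05 in any comparison or in the F test for any dose difference (0% of the 182 each time), and so no member did. Unadjusted p was under 0.05 for 3 miRNAs at 0.5 against 0 Gy, 4 at 1 against 0 Gy, 0 at 1 against 0.5 Gy and 2 in the F test, with 0 members among them. The unadjusted 95% interval reached from 0.96 (miR-6360) to 3.56 (miR-5620-3p) log2 units on each side of a member's difference, with a median of 2.05.

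The members' differences were mostly below 0. At 0.5 against 0 Gy the median was -0.84 (50 of 60 lower) beside -0.50 for all tested (129 of 182 lower), and at 1 against 0 Gy -0.66 (51 lower) beside -0.50 (130 lower). Relative to all tested, which include the members, their median was -0.34 and -0.16. The 78 comparison miRNAs stood closer to 0, at -0.27 (43 lower) and -0.21 (45 lower). At 1 against 0.5 Gy it was 0.10 beside -0.03. By arm, the median at 0.5 against 0 Gy was -0.90 in the 5p members and -0.90 with no arm suffix, and at 1 against 0 Gy -0.72 and -0.57. Of the 8 members of the 3p arm, 7 were higher in each comparison. No median is given for them, because 3 had no probe well above background on any array. The sign of the members' median turned with the normexp background correction, to 0.19 at 0.5 Gy and 0.02 at 1 Gy, where all tested stood at 0.33 and 0.16. One slide held arrays 1 and 3 of every dose. Within it the members' median was -1.21 at 0.5 and -1.28 at 1 against 0 Gy, beside 0.63 and 0.29 for the 286 miRNAs tested there. With the slide as a block it was -1.38 and -1.13, beside -0.81 and -0.79 for all tested. With scaling on all probes it was -1.51 and -1.67, beside -1.18 and -1.50.

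Without the 2 high-background arrays the members' median was -0.24 at 0.5 against 0 Gy (42 of 60 lower) and -0.23 at 1 against 0 Gy (40 lower), beside -0.11 and -0.21 for all tested and -0.03 and -0.04 for the comparison miRNAs. Of the 3p members, 5 and 7 were higher. On these 7 arrays the members' median at 0.5 against 0 Gy turned to 0.22 with scaling on all probes and to 0.12 with normexp. All tested stood there at 0.34 and 0.24. Without array 1 of every dose, the median of the 60 members was -0.01 and 0.06, beside -0.04 and -0.02 for all tested. The dose differences of the group over 9 arrays thus moved with the number 1 arrays, and what sets those apart was not tested.
The order of the dose means over 9 arrays was lowest at 0.5 Gy in 33 members, falling from 0 to 1 Gy in 17, highest at 0.5 Gy in 8 and rising in 2. Over all 182 tested the counts in this order were 69, 60, 37 and 16. On the 7 arrays the members' counts were 23, 19, 12 and 6 (54, 58, 46 and 24 of all tested), and without array 1 of every dose they were 13, 19, 12 and 16 (34, 64, 40 and 44).

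**Figure D5:**
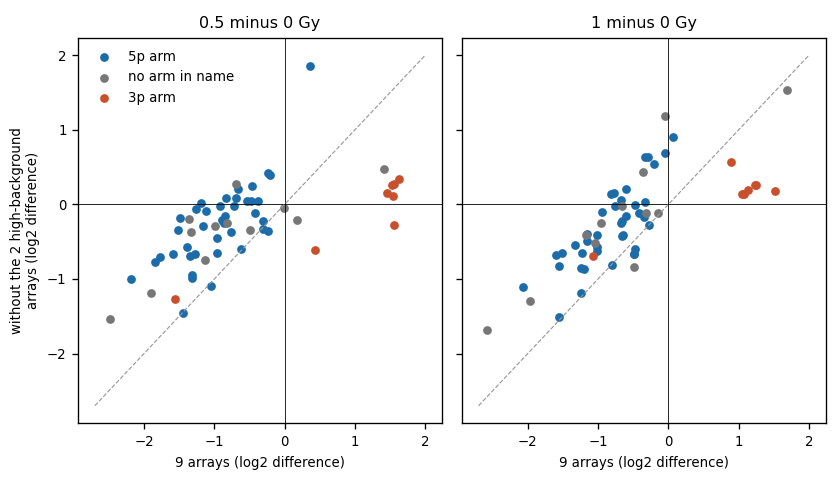
Each point is 1 of the 60 miRNAs, with its log2 difference from 0 Gy over 9 arrays on the horizontal axis and without the 2 high-background arrays on the vertical axis, and the dashed line marks equal values. The 3p points at the right drop to near 0 and most 5p points at the left rise toward it.

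The members with the smallest p in the F test were miR-6385, miR-6238, miR-7226-5p, miR-7058-5p and miR-5100 (unadjusted limma p 0.145, 0.163, 0.200, 0.207 and 0.208).
In miR-6385, whose hairpin lies within Pml, a gene of nuclear bodies, the log2 signal was 10.10, 5.88 and 5.68 without irradiation, at the floor, 5.64 and 5.74 after 0.5 Gy, and at the floor, 5.69 and 5.38 after 1 Gy. One high array at 0 Gy and 1 floor array at each dose of alpha particles set the means apart. It differed by -2.58 ± 1.34 (SE, n = 3 arrays a dose) at 1 against 0 Gy, with a limma adjusted p of 0.616. Without the 2 high-background arrays the difference was -1.69. It was -1.14 with the high 0 Gy array left out and -0.24 with array 1 of every dose left out.
In miR-6238 it was 8.41, 5.01 and 5.04 without irradiation, at the floor, 4.87 and 5.05 after 0.5 Gy, and at the floor, 4.93 and 4.79 after 1 Gy. All 3 arrays of 1 Gy were below those of 0 Gy, narrowly so for array 2. The difference was -1.97 over 9 arrays, -0.84 with the high 0 Gy array left out and -0.16 without array 1 of every dose. The exact permutation test, two-sided, gave p = 0.1, the smallest that 3 against 3 arrays can give.
In miR-7226-5p it was 6.59, 5.77 and 5.24 without irradiation, at the floor, 5.26 and 5.34 after 0.5 Gy, and at the floor, 5.30 and 4.77 after 1 Gy. The difference at 1 against 0 Gy was -1.56 over 9 arrays and -0.83 without the high-background pair. It was -0.47 without array 1 of every dose, and the doses overlapped.
In miR-7058-5p it was 9.18, 6.74 and 6.18 without irradiation, 5.40, 6.50 and 6.25 after 0.5 Gy, and 6.00, 6.26 and 6.10 after 1 Gy. Array 1 of 0 Gy was the high one. Its difference at 1 against 0 Gy was -1.25 ± 0.77 (SE), with a limma adjusted p of 0.616, and -0.34 without array 1 of 0 Gy.
In miR-5100 it was 3.68, 3.08 and 4.27 without irradiation, 6.97, 3.87 and 4.44 after 0.5 Gy, and 5.67, 6.54 and 3.87 after 1 Gy. This is the one of the 5 that was higher after irradiation, by 1.68 ± 0.94 (SE) at 1 against 0 Gy with a limma adjusted p of 0.616. The software did not call it detected on array 1 of 1 Gy. The doses overlapped. The difference was 1.53 without the high-background pair and 1.09 without array 2 of 1 Gy. It was smaller with other scaling, at 0.44 on all probes, 0.37 with quantile normalization, 0.48 with the total gene signal and 0.64 with normexp, and it was 0.79 within the slide of 6 arrays.

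Few members had doses that did not overlap. The share among all miRNAs tested is given in brackets. At 0.5 against 0 Gy over 9 arrays, 3 of 60 members were higher without overlap (3.85%) and 1 was lower (3.3%). The 3 were miR-6924-3p, miR-6943-3p and miR-7022-3p, and the lower one was miR-7040-5p. At 1 against 0 Gy 0 members were higher (1.65%) and 1 was lower, miR-6238 (6.04%). At 1 against 0.5 Gy there were 0 in each direction (0.549% each way).
In miR-7022-3p, named after its values were seen, the log2 signal was 4.07, 3.97 and 3.93 without irradiation, 8.06, 4.13 and 4.15 after 0.5 Gy, and 6.95, 3.65 and 4.60 after 1 Gy. Arrays 2 and 3 of 0.5 Gy were just above the 0 Gy arrays, while array 1 was far above.
In miR-7040-5p it was 6.56, 6.98 and 6.55 without irradiation, at the floor, 6.31 and 6.40 after 0.5 Gy, and 4.92, 6.67 and 5.47 after 1 Gy. Its 0.5 Gy arrays were all lower, and the 1 Gy arrays overlapped both.

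On the 7 arrays of lower background, with 2 arrays at each of 0.5 and 1 Gy, more miRNAs do not overlap by construction. At 0.5 against 0 Gy 5 members were higher (6.04%) and 2 lower (4.95%), at 1 against 0 Gy 1 was higher (3.85%) and 3 lower (8.24%), and at 1 against 0.5 Gy 8 were higher (8.79%) and 6 lower (14.8%). The one member higher at both doses was miR-6368, chosen after its values were seen. Its log2 signal was 5.41, 5.35 and 5.59 without irradiation, at the floor, 5.60 and 5.84 after 0.5 Gy, and 2.96, 7.24 and 6.01 after 1 Gy. Without the high-background pair it differed by 1.18 at 1 against 0 Gy (limma adjusted p 0.729), and over 9 arrays by -0.04.
Lower at 1 Gy on these arrays were miR-6238, miR-7047-5p and miR-7686-5p. In miR-7686-5p the log2 signal was 7.43, 8.33 and 7.35 without irradiation against 7.33 and 6.89 on arrays 2 and 3 of 1 Gy, while its high-background array of 1 Gy read 7.48.

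All 60 members had at least 2 probes, and their probes differed in the same direction at 1 against 0 Gy in 58. The exceptions were miR-6898-5p and miR-7219-5p. The brightest probe carried a median of 61.0% of a member's signal.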

How the data were processed

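The authors deposited 1 scanner file per array. It holds intensity values per spot from Feature Extraction 11.5.1.1 (Agilent), which the software had detrended and background-subtracted without scaling arrays to each other, per the file headers. A summary table was left aside, since the names of its 9 value columns fit no sample title. Spots marked as outliers were left out, probe means of processed intensity were scaled on each array's 75th percentile, taken over the 45 probes that passed on all 9, probes of a miRNA were summed, and values were raised to a floor of 7.18 scaled units before log2. Precision is limited by the number of arrays. Tests used limma 3.58.1 in R 4.3.3 (lmFit, eBayes), two-sided, on the 182 miRNAs called detected by the software on every array of 1 or more doses, and exact permutation tests for single miRNAs. The limma step was run on simulated data with independent errors and no floor or outlying arrays. That setting differs from these arrays, so it does not show how the tests perform on them. Same-numbered arrays deviated together between 0.5 and 1 Gy (r 0.90, 0.83 and 0.55) but not between 0 Gy and either dose (r -0.12 to 0.05). Some arrays of unlike number did so as well. Array 3 of 0.5 Gy went with array 2 of 1 Gy (r 0.75), and array 2 of 0.5 Gy with array 3 of 1 Gy (r 0.61). These values therefore cannot decide whether the numbers pair the arrays.

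Named members were chosen by a rule: the 5 highest and 3 lowest means, the 5 smallest F-test p-values, the 3 smallest and 3 largest spreads, and non-overlap at 1 against 0 Gy; others are marked as chosen after their values were seen. The members, lists and tests were chosen with earlier results of these data known. Sequences are RefSeq's (GRCm38.p6); the array design names an older build, so no coordinates are printed. Normexp, planned on the mean, was run on median spot intensity with an offset of 50.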

Additional observations from a re-analysis of the deposited data

How the results depend on the processing

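None of the 23 settings listed in advance gave a call in any comparison, and 7 added after seeing the data likewise gave 0 calls. Over all of them the smallest adjusted p was 0.0714. A further added series of fits left out the high-background pair and, in turn, each other array, and most of these are not given here. The fit without array 3 of 0 Gy called 4 miRNAs at 0.5 against 0 Gy (let-7a-5p, let-7b-5p, let-7c-5p and miR-1949), with 0 members among them. The members' medians at 0.5 and 1 against 0 Gy (-0.84 and -0.66) were smaller than 1.15, the SD between arrays of the members' median. That SD is between single arrays of a dose, the high-background pair included. It does not measure the error of a difference between dose means. Over the settings run the medians at 0.5 and 1 against 0 Gy were lowest when scaled on all probes, at -1.51 and -1.67. There all tested stood at -1.18 and -1.50. The highest were 0.22 (scaled on all probes without the high-background pair, all tested 0.34) and 0.06 (without array 1 of every dose, all tested -0.02). Under normexp the members' medians were 0.19 and 0.02. With a replicate block they were -0.84 and -0.66 with 0 calls. Over the 0.5 and 1 Gy arrays alone, an added fit with a replicate block gave 0 calls and a smallest adjusted p of 0.644, with an unadjusted p under 0.05 for 9 miRNAs, 3 of them members. Signs turned for miR-7226-5p at 0.5 against 0 Gy with normexp (0.1921, and 0.08435 without the high-background pair) and for miR-5100 with quantile normalization (-0.03406), and the cause was not tested. Signal over background limits these values: 38 and 28 members were at the floor on the high-background pair, and 5 of 60 had a probe well above background on all 9.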
